A study of Mus musculus with 6 samples.

Results

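Homologous recombination and Fanconi repair genes were followed in NIH/3T3 cells (mouse fibroblasts that grow as an immortal line) after knockdown of Aldoa, which encodes the glycolytic enzyme aldolase A. The members were 35 named genes of these pathways, chosen by symbol, and 33 of them were among the 18001 genes of the deposited table. Fanca and Atrip were not analysed here. The siAldoa group had been treated with siRNAs against Aldoa and the siCtrl group with non-targeting control siRNAs, each for 48 h, with 3 libraries of poly(A) RNA per group. All cells were of the same line, grown in the same medium, and no other gene was targeted. A knockdown leaves part of the transcript in place, and a single line is 1 model of a fibroblast.

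Homologous recombination mends a broken DNA molecule by copying the intact sister. The broken ends are trimmed to single strands, BRCA1, PALB2 and BRCA2 prepare them for strand invasion, and further proteins guide the strand into the sister duplex. The Fanconi pathway handles links between the strands of DNA: a core complex of ligase subunits attaches ubiquitin to FANCD2 and FANCI, and nucleases, helicases and recombination proteins finish the repair. Since a sister is present only during and after replication, many of these genes are transcribed mostly in S and G2 phase of dividing cells, under E2F factors in S phase genes and through CHR elements, read by the DREAM complex, in G2 and M phase genes. CCAAT boxes are bound by the activator NF-Y, in these and in many other promoters.

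Deposited values were scaled read counts per gene (CPM), and whole reads could be recovered from all of them. Per library they summed to between 987420 and 1015223 CPM, so they were not scaled by library size alone. Scaling the recovered reads by trimmed means of log ratios (TMM) returned the same calls and the same median over all genes. The libraries held between 3692341 and 3771129 reads, and 3 reads corresponded to 0.786 to 0.822 CPM. Aldoa fell to 12.7% of siCtrl (log2 fold change -2.96, limma adjusted p = 1.3e-21), lower in 3 of 3 siAldoa libraries. Replicate 3 stood apart in both groups: a chi-square of their reads, divided by its degrees of freedom, was 1.12 and 1.11 between replicates 1 and 2 of siCtrl and siAldoa, and 1.97 to 3.03 for pairs with replicate 3. The study added spike-in RNA to replicate 1 before and to replicates 2 and 3 after RNA extraction. Of 12 fibroblast markers, all were found, with a sum of 15976 to 16516 CPM in siCtrl and 13858 to 14481 CPM in siAldoa. Among them, 4 were called lower (33.3%, against 10.0% of all genes) and 5 higher (41.7%, against 10.4%). Leukocyte markers (5 of 8 in the table) summed to 7.22 to 10.7 CPM over all libraries. Endothelial markers (5 of 6) summed to 10.4 to 11.6 CPM in siCtrl and 6.15 to 9.45 CPM in siAldoa. Epithelial markers (4 of 7) summed to 18.6 to 19.7 CPM in siCtrl and 7.86 to 14.2 CPM in siAldoa, and Krt18 was listed at 0 in all siAldoa libraries. The part of these markers in the results below was not tested.

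Promoter sequence is shown for members on which the comparison turns, so that the sites read by cell-cycle factors can be seen beside the values. They are Msh6, Blm and Rad51ap1, which had the lowest adjusted p-values among members with a promoter in the reference table, and Chek2, Bard1 and Brca1, which were added after their values were seen. Each stretch is the longest run without an annotated exon in the 250 bases before the start site, from RefSeq on GRCm38.p6, written 5′ to 3′ on the strand of the gene, and all 6 stretches lie outside annotated gene bodies. Capitals mark an E2F motif (TTTCCCGC, TTTCGCGC, TTTGCCGC or TTTGGCGC), a CHR motif (TTTGAA or TTCGAA) or a CCAAT box (CCAAT), each searched on both strands, and no motifs overlapped in these promoters. The fourth gene by adjusted p, Fancl, had its whole stretch within annotated exons and is not printed.
Msh6 (chr17:87974800-87975049, plus strand): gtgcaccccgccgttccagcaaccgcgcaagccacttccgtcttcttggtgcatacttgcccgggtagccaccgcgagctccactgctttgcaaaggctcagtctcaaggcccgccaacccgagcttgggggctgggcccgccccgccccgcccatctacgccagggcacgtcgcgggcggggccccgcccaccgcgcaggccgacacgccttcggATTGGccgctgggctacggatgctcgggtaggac
Blm (chr7:80535120-80535248, minus strand): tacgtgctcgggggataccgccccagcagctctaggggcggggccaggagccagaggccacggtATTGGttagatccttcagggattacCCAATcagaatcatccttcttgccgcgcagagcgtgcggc
Rad51ap1 (chr6:126939588-126939837, minus strand): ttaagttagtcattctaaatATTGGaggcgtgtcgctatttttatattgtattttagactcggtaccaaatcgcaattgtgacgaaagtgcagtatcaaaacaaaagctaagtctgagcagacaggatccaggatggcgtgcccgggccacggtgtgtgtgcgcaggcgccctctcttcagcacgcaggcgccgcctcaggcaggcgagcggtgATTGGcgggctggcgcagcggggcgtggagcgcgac
Chek2 (chr5:110839778-110839978, plus strand): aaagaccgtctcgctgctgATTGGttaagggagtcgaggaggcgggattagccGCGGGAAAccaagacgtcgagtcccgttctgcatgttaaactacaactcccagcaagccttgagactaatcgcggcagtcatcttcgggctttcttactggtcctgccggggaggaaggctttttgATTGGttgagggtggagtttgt
Bard1 (chr1:71103147-71103222, minus strand): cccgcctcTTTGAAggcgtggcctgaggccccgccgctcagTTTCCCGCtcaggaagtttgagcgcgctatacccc
Brca1 (chr11:101551956-101552148, minus strand): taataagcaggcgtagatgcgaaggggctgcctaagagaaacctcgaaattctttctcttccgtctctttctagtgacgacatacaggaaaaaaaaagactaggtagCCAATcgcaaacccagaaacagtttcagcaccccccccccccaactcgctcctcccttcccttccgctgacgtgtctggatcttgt

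Msh6 and Rad51ap1 carried a CCAAT box 34 and 36 bases before the start site. In Msh6 an E2F motif also began at base 16 after the start site, which lies beyond the printed stretch. Bard1 carried a CHR motif 242 bases and an E2F motif 209 bases before the RefSeq start site, whereas Brca1 carried a CCAAT box alone. In Bard1 and Blm the RefSeq start site lies within the gene as annotated. Their printed stretches therefore end 175 and 122 bases before it, where the annotated gene begins. Chek2 carried an E2F motif 152 bases before the start site between a pair of CCAAT boxes. Over the 11192 genes of the table with a promoter, 4.26% held an E2F motif, 17.4% a CHR motif and 43.0% a CCAAT box within 250 bases before and 50 bases after the start site. Of 25 members with a promoter, 6 held an E2F motif (Bard1, Brca2, Chek2, Fancg, Msh6 and Rad51c), 3 a CHR motif and 17 a CCAAT box. A comparison of these shares is void for the members, since only 75.8% of the 33 have a promoter in the reference table. A match describes letters in a window and not the binding of a factor.

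The first question was whether the repair genes as a group were expressed at another level after Aldoa knockdown. More of them were lower than over all genes, and the differences were small. At an adjusted p under 0.05, 9 of 33 members (27.3%) were called lower in siAldoa, against 10.0% of all 18001 genes, and 1 member (3.03%) was called higher, against 10.4%. The called members were Msh6, Rad51ap1, Blm, Bard1, Fancl, Brip1, Fancd2, Chek1 and Exo1 on the lower side and Chek2 on the higher side. Their levels in siAldoa were 70.1% to 80.5% of siCtrl for the lower genes and 133% for Chek2. Every siAldoa library lay below every siCtrl library in 12 members (36.4%, against 17.1% of all genes) and above in 1 member (3.03%, against 16.7%). The log2 fold change on log2(CPM + 1), a scale on which changes of genes with few reads look smaller, was negative in 25 members, with a median of -0.19, against a median of -0.0023 over all genes. In a culture, fewer cells in a phase of the cycle and less RNA of a gene per cell cannot be told apart.

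The count of calls changed with the libraries included. Without siCtrl replicate 1 or siCtrl replicate 3 it was 5 members lower, without replicate 3 of both groups only Msh6 was called, and the median was then -0.16.

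**Figure D1:**
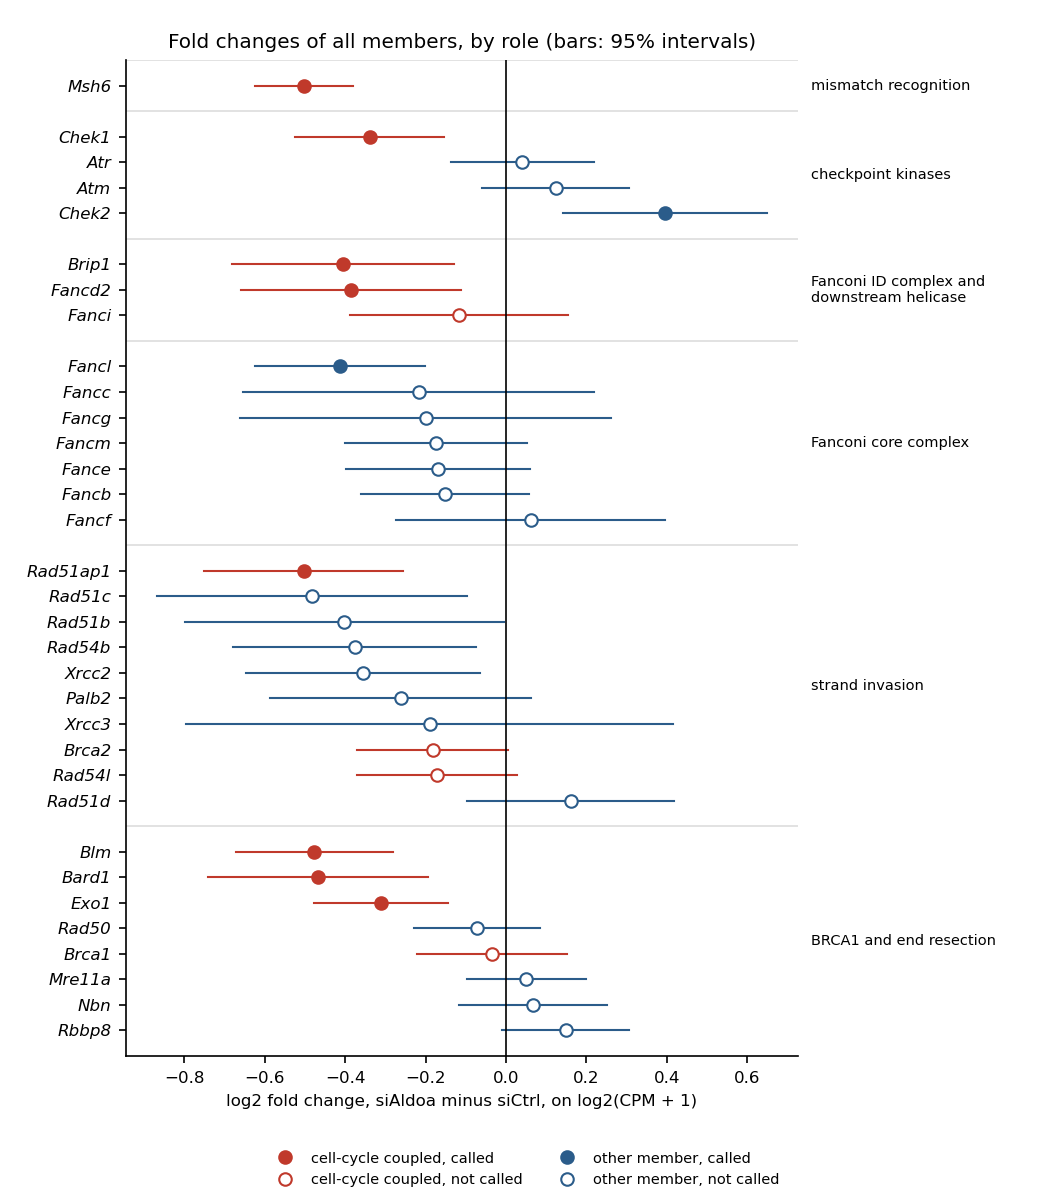
Log2 fold change (siAldoa minus siCtrl, on log2(CPM + 1)) of the 33 members, grouped by role, with 95% intervals from limma. Filled points were called at an adjusted p under 0.05, and red marks members listed as cell-cycle coupled. The 9 filled points left of 0 lie between -0.50 and -0.31, and Chek2 is the filled point to the right at 0.40.

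Levels per length differed widely among the members. Per kilobase of annotated exon, Msh6 had the highest level in siCtrl with 42.8 CPM per kb, followed by Nbn (15.6), Fancb (13.5), Rad50 (12.9) and Mre11a (12.8). The lowest levels were those of Fancc (1.10), Xrcc3 (1.15), Atr (1.89) and Fancg (1.92). Lengths were the union of all annotated exons of a gene. This union was 23.6 kb for Atr, which had 44.7 CPM in siCtrl, so its low rank rests on that length. Reads per library ranged from 7 for Xrcc3 to 725 for Msh6. Among the 9 members under 20 CPM in siCtrl the median standard error of the log2 fold change was 0.19, and Chek2 was called. Among the 24 members at or above it the median standard error was 0.095, and the 9 lower calls were all here.

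Genes of the BRCA1 complex and of end resection differed among themselves. The trimming nuclease, its helicase partner and the partner of BRCA1 fell, while the genes that first bind the broken end did not pass the test. Bard1 (ENSMUSG00000026196, chromosome 1, 71027498 to 71103146, minus strand), whose protein forms the ubiquitin ligase with BRCA1, was measured at 26.6, 26.3 and 25.7 CPM in siCtrl and 22.4, 18.7 and 15.4 CPM in siAldoa. The groups did not overlap, and the difference was larger than the spread (log2 fold change -0.47, standard error 0.13, limma adjusted p = 0.013). Bard1 lost its call without any siCtrl library and without siAldoa replicate 2 or 3, with limma adjusted p-values of 0.054 to 0.097. With DESeq2 Bard1 was not called. Brca1 itself (ENSMUSG00000017146, chromosome 11, 101488764 to 101551955, minus strand) was measured at 44.4, 51.7 and 57.9 CPM in siCtrl and 51.8, 48.9 and 48.7 CPM in siAldoa. All 3 siAldoa values lay inside the range of siCtrl (log2 fold change -0.04, 95% interval -0.22 to 0.15, limma adjusted p = 0.84). Without siCtrl replicate 3 the sign of the Brca1 difference turned to 0.055.

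Blm (ENSMUSG00000030528, chromosome 7, 80454733 to 80535119, minus strand) encodes a RecQ helicase that unwinds ends and dissolves joint molecules. It was measured at 40.0, 47.1 and 42.6 CPM in siCtrl and 31.0, 31.5 and 29.6 CPM in siAldoa (log2 fold change -0.48, standard error 0.094, limma adjusted p = 0.00064). Exo1 (ENSMUSG00000039748, chromosome 1, 175880581 to 175913489, plus strand) encodes the nuclease of long-range resection. It was measured at 71.2, 65.1 and 73.8 CPM in siCtrl and 50.2, 57.7 and 61.3 CPM in siAldoa (log2 fold change -0.31, standard error 0.081, limma adjusted p = 0.0071). Neither gene had overlapping groups. Blm was called whichever library was left out, and Exo1 lost its call without siCtrl replicate 1, siCtrl replicate 3 or siAldoa replicate 1 (limma adjusted p 0.050 to 0.075).

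The MRN complex, which binds and first nicks a broken end, consists of MRE11, RAD50 and NBN. Mre11a was measured at 74.5, 73.3 and 79.1 CPM in siCtrl and 71.0, 83.1 and 81.4 CPM in siAldoa. Rad50 was measured at 74.2, 67.3 and 66.4 CPM in siCtrl and 72.3, 62.5 and 63.1 CPM in siAldoa. Nbn was measured at 40.8, 37.5 and 40.5 CPM in siCtrl and 41.6, 44.1 and 39.0 CPM in siAldoa. The groups overlapped in all 3 genes. Their log2 fold changes were 0.05, -0.07 and 0.07, with 95% intervals of -0.10 to 0.20, -0.23 to 0.09 and -0.12 to 0.25, so that a decrease as large as that of Blm (-0.48) lay outside each interval. Rbbp8, the cofactor of MRE11 known as CtIP, had a log2 fold change of 0.15 (95% interval -0.01 to 0.31).

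Among 10 genes of strand invasion, Rad51ap1 was called lower (10.0%, the share of all genes). Rad51ap1 (ENSMUSG00000030346, chromosome 6, 126923050 to 126939587, minus strand) encodes a protein that stimulates joint formation during strand invasion. It was measured at 35.1, 35.0 and 30.4 CPM in siCtrl and 19.4, 24.6 and 26.4 CPM in siAldoa. The groups did not overlap (log2 fold change -0.50, standard error 0.12, limma adjusted p = 0.0034). Brca2, which acts with PALB2 before strand invasion, was measured at 40.3, 45.4 and 42.9 CPM in siCtrl and 40.7, 36.1 and 36.1 CPM in siAldoa. Its groups overlapped by siAldoa replicate 1 (log2 fold change -0.18, 95% interval -0.37 to 0.01, limma adjusted p = 0.18).

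Rad51b, Rad51c, Rad51d, Xrcc2 and Xrcc3 encode related proteins that assist strand invasion. In Rad51c, Rad51b and the translocase gene Rad54b every siAldoa library was below every siCtrl library, but the limma adjusted p-values were 0.072, 0.16 and 0.072. These genes had 10.1 to 17.8 CPM in siCtrl, and the log2 fold changes were -0.48, -0.40 and -0.38 with standard errors of 0.19, 0.19 and 0.15. Of 5782 exonic bases, Rad54b shares 2075 in sum with exons of Fsbp and Gm11832, and the use of strand in counting is not given. Rad51c passed the threshold with edgeR (log2 fold change -0.53, adjusted p = 0.047) and not with DESeq2 (adjusted p = 0.18). Xrcc2 had a log2 fold change of -0.36 (limma adjusted p = 0.079), and Xrcc3, with 3.16 CPM in siCtrl, -0.19 (95% interval -0.79 to 0.41). Rad51d had the positive value of the set, 0.16 (limma adjusted p = 0.42). Palb2, the bridge between BRCA1 and BRCA2, had -0.26, and the translocase gene Rad54l -0.17, neither passing the test. Over these 10 genes the summed level was 218 to 224 CPM in siCtrl and 180 to 186 CPM in siAldoa, and the median log2 fold change was -0.31.

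**Figure D2:**
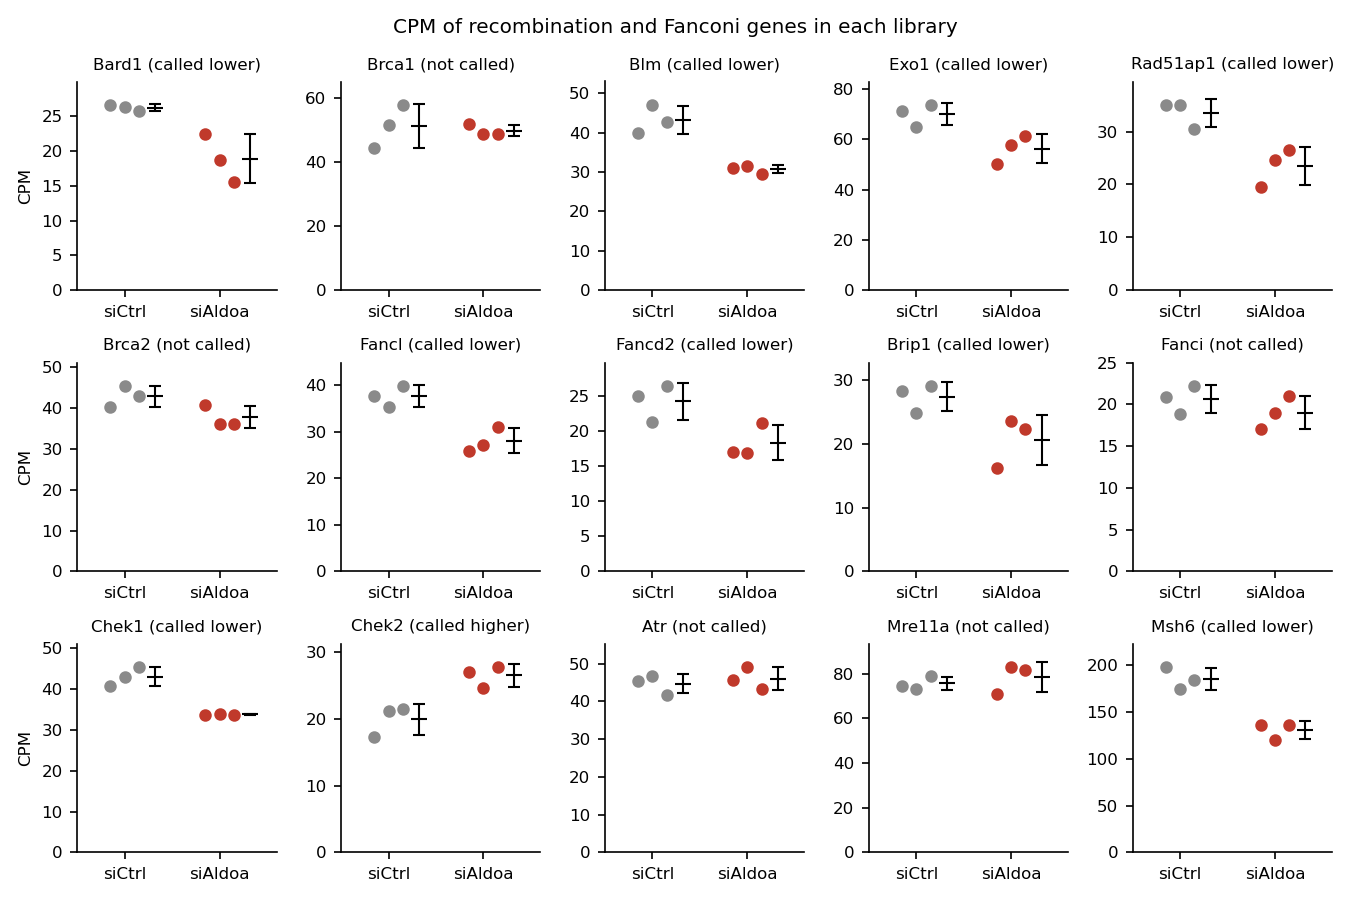
CPM (vertical axes, each from 0) of 15 members in the 3 siCtrl libraries (grey) and the 3 siAldoa libraries (red), with replicates 1 to 3 from left to right, and mean ± SD in black. Bard1, Blm, Exo1, Rad51ap1, Fancl, Fancd2, Brip1, Chek1 and Msh6 show siAldoa points below all siCtrl points, Chek2 shows them above, and the groups overlap in Brca1, Brca2, Fanci, Atr and Mre11a.

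In the Fanconi core complex, 1 of 7 genes in the table (14.3%) was called lower, a share near the 10.0% of all genes. Fancl (ENSMUSG00000004018, chromosome 11, 26386135 to 26471876, plus strand), which encodes the ubiquitin ligase subunit, was measured at 37.8, 35.3 and 39.9 CPM in siCtrl and 25.9, 27.3 and 31.2 CPM in siAldoa. The groups did not overlap (log2 fold change -0.41, standard error 0.10, limma adjusted p = 0.0050). Its exons overlap those of Vrk2 by 462 bases in the annotation, and the sources used here do not say whether reads were counted by strand. The other subunits had log2 fold changes of -0.22 (Fancc), -0.20 (Fancg), -0.17 (Fancm, the translocase that anchors the complex), -0.17 (Fance), -0.15 (Fancb) and 0.06 (Fancf), with overlapping groups in each. Fancc and Fancg had 9.19 and 7.30 CPM in siCtrl, and their 95% intervals reached from -0.65 to 0.22 and from -0.66 to 0.26.

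FANCD2 and FANCI form the clamp that receives ubiquitin, and BRIP1 is a helicase that acts later and binds BRCA1. Fancd2 (ENSMUSG00000034023, chromosome 6, 113531682 to 113597017, plus strand) was measured at 24.9, 21.3 and 26.5 CPM in siCtrl and 17.0, 16.8 and 21.2 CPM in siAldoa. The highest siAldoa value lay just under the lowest siCtrl value (log2 fold change -0.39, standard error 0.13, limma adjusted p = 0.041). Fancd2 lost its call without siCtrl replicate 1 or 3 or siAldoa replicate 1 or 2 (limma adjusted p 0.14 to 0.18), and with DESeq2. Fanci was measured at 20.8, 18.9 and 22.2 CPM in siCtrl and 17.0, 19.0 and 20.9 CPM in siAldoa. The groups overlapped (log2 fold change -0.12, 95% interval -0.39 to 0.15, limma adjusted p = 0.60). Exons of Fancd2 and Fanci overlap those of Fancd2os by 257 bases and of Polg by 921 bases.

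Brip1 (ENSMUSG00000034329, chromosome 11, 86058138 to 86201193, minus strand) was measured at 28.2, 24.9 and 29.1 CPM in siCtrl and 16.2, 23.5 and 22.3 CPM in siAldoa. The groups did not overlap, and siAldoa replicate 1 was the lowest (log2 fold change -0.41, standard error 0.13, limma adjusted p = 0.033). Without siAldoa replicate 1 the log2 fold change was -0.25 (limma adjusted p = 0.21). The call was also lost without siAldoa replicate 3 or any siCtrl library, and with DESeq2.

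The checkpoint kinases split in direction. ATM and ATR sense breaks and stalled forks, and CHK2 and CHK1 are the kinases they activate in turn. Chek1 (ENSMUSG00000032113, chromosome 9, 36708482 to 36727065, minus strand) was measured at 40.8, 42.9 and 45.5 CPM in siCtrl and 33.7, 33.9 and 33.8 CPM in siAldoa (log2 fold change -0.34, standard error 0.089, limma adjusted p = 0.0078). Chek2 (ENSMUSG00000029521, chromosome 5, 110839979 to 110874145, plus strand) was measured at 17.3, 21.1 and 21.4 CPM in siCtrl and 27.0, 24.6 and 27.8 CPM in siAldoa (log2 fold change 0.40, standard error 0.12, limma adjusted p = 0.023). The groups did not overlap in either gene. Chek2 lost its call without siCtrl replicate 1 (log2 fold change 0.30, limma adjusted p = 0.12), siAldoa replicate 1 or siAldoa replicate 3, and with DESeq2 (adjusted p = 0.12). Chek1 was not called with DESeq2 either.

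The kinases upstream did not pass the test. Atm was measured at 45.5, 41.6 and 52.6 CPM in siCtrl and 50.5, 49.4 and 51.8 CPM in siAldoa (log2 fold change 0.12, 95% interval -0.06 to 0.31). Atr was measured at 45.5, 46.8 and 41.8 CPM in siCtrl and 45.6, 49.2 and 43.2 CPM in siAldoa (log2 fold change 0.04, 95% interval -0.14 to 0.22). In both genes the groups overlapped.

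Msh6, which acts in the recognition of mismatched bases and stands outside recombination proper, had the lowest adjusted p of the members. Msh6 (ENSMUSG00000005370, chromosome 17, 87975062 to 87990892, plus strand) was measured at 199, 175 and 184 CPM in siCtrl and 136, 120 and 136 CPM in siAldoa. The groups were far apart relative to their spread, with 186 ± 11.9 CPM (SD, n = 3) and 131 ± 9.21 CPM (SD, n = 3) (log2 fold change -0.50, standard error 0.059, limma adjusted p = 8.9e-07). It was called under each of the 17 alternatives tried, which no other member was. Among these, TMM scaling of recovered reads repeats the main result and is no separate check.

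Partner genes were also compared within each library, where a shift of all genes cancels. These 3 pairs were chosen after their values were seen, so no test is given. The log2 ratio of Bard1 to Brca1 was -0.72, -0.95 and -1.14 in siCtrl and -1.17, -1.34 and -1.60 in siAldoa. The ratio of Fancd2 to Fanci was 0.25, 0.17 and 0.24 in siCtrl and 0.00, -0.16 and 0.017 in siAldoa. The ratio of Chek1 to Chek2 was 1.20, 0.99 and 1.05 in siCtrl and 0.31, 0.45 and 0.27 in siAldoa. In each pair all siAldoa ratios were below all siCtrl ratios. For Chek1 to Chek2 this had to follow, since every siAldoa library was lower in Chek1 and higher in Chek2. For Bard1 to Brca1 the nearest values, -1.14 in siCtrl and -1.17 in siAldoa, almost met. The ratios restate the values of the single genes and are no further result.

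**Figure D3:**
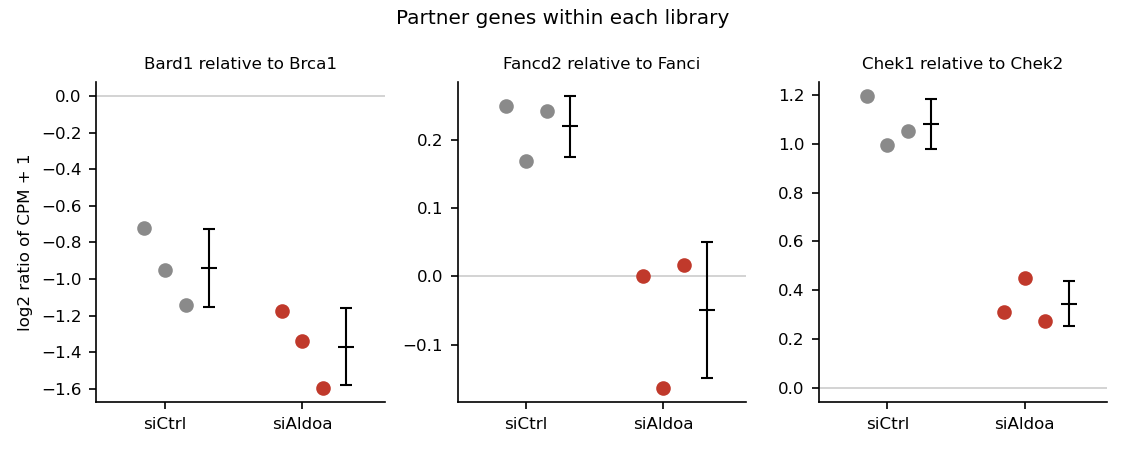
Log2 ratio of CPM + 1 between partner genes in each library (grey siCtrl, red siAldoa), with mean ± SD in black. The mean ratio is -0.94 in siCtrl and -1.37 in siAldoa for Bard1 to Brca1, 0.22 and -0.049 for Fancd2 to Fanci, and 1.08 and 0.35 for Chek1 to Chek2.

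The second question was how the repair genes compare with genes coupled to the cell cycle. Members listed as cell-cycle coupled held most of the lower calls. Of 12 members listed as cell-cycle coupled (Brca1, Brca2, Bard1, Rad51ap1, Rad54l, Blm, Exo1, Brip1, Fancd2, Fanci, Chek1 and Msh6), 8 were called lower (66.7%, against 10.0% of all genes), and all 12 log2 fold changes were negative, from -0.50 to -0.04 with a median of -0.36. The 4 not called, Brca1, Fanci, Rad54l and Brca2, had overlapping groups. Of the 21 other members, Fancl was called lower (4.76%, against 10.0%) and Chek2 higher (4.76%, against 10.4%), 13 log2 fold changes were negative, and the median was -0.17. The summed level of the coupled members was 589 to 620 CPM in siCtrl and 462 to 484 CPM in siAldoa, and that of the other members 619 to 642 CPM and 611 to 618 CPM. Msh6, which stands outside recombination proper, weighs heavily in the coupled sum, with means of 186 CPM in siCtrl and 131 CPM in siAldoa. The coupled members had a median of 40.1 CPM in siCtrl and the others 23.1 CPM, so their differences were also measured with more reads. Both lists were chosen with earlier results of these data known, so the split may reflect that choice. The difference between these lists was not tested.

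Of the coupled members, 4 were called lower without siCtrl replicate 1 or 3 and 5 without siAldoa replicate 1, and of the other members 2 without siAldoa replicate 3. Without replicate 1 of both groups the median of the other members was -0.041, and without replicate 3 of both groups it was -0.11. The median of the coupled members lay between -0.40 and -0.29 whichever library or replicate number was left out.

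Most S phase genes outside the members were called lower. Of 35 such genes, 28 were called lower (80.0%, against 10.0% of all genes), and the median log2 fold change was -0.41. Every siAldoa library lay below every siCtrl library in 31 of them (88.6%, against 17.1% of all genes). Uracil glycosylase Ung fell from 30.9 ± 1.68 to 13.7 ± 1.67 CPM (SD, n = 3, limma adjusted p = 5.9e-07), Uhrf1, which keeps DNA methylation at replicated DNA, from 152 ± 9.94 to 69.6 ± 6.44 CPM (limma adjusted p = 2.9e-11), and the replication licensing gene Cdc6 from 42.7 ± 5.95 to 23.8 ± 1.18 CPM (limma adjusted p = 5.1e-06). The log2 fold changes were -1.13, -1.12 and -0.81, and no member reached this size. The summed level of the list was 3751 to 3800 CPM in siCtrl and 2721 to 2810 CPM in siAldoa. Leaving out 1 library gave 26 to 28 lower calls, and leaving out replicate 3 of both groups 16.

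Of 53 G2 and M phase genes, 23 were called lower (43.4%, against 10.0% of all genes) and 2 higher (3.77%, against 10.4%). The list had a median log2 fold change of -0.12. The chromatin gene Anp32e (-0.89), the mitotic gene Fam64a (-0.51) and the chromatin gene Hmgb2 (-0.45) were lowest, and Hmmr, a spindle gene, rose by 0.16 on the log2 scale (limma adjusted p = 0.020). Without siCtrl replicate 2 the list had 15 lower calls, and without replicate 3 of both groups 6. The coupled members had a median between those of the G2 and M phase and the S phase lists. Their differences from either list were not tested.

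**Figure D4:**
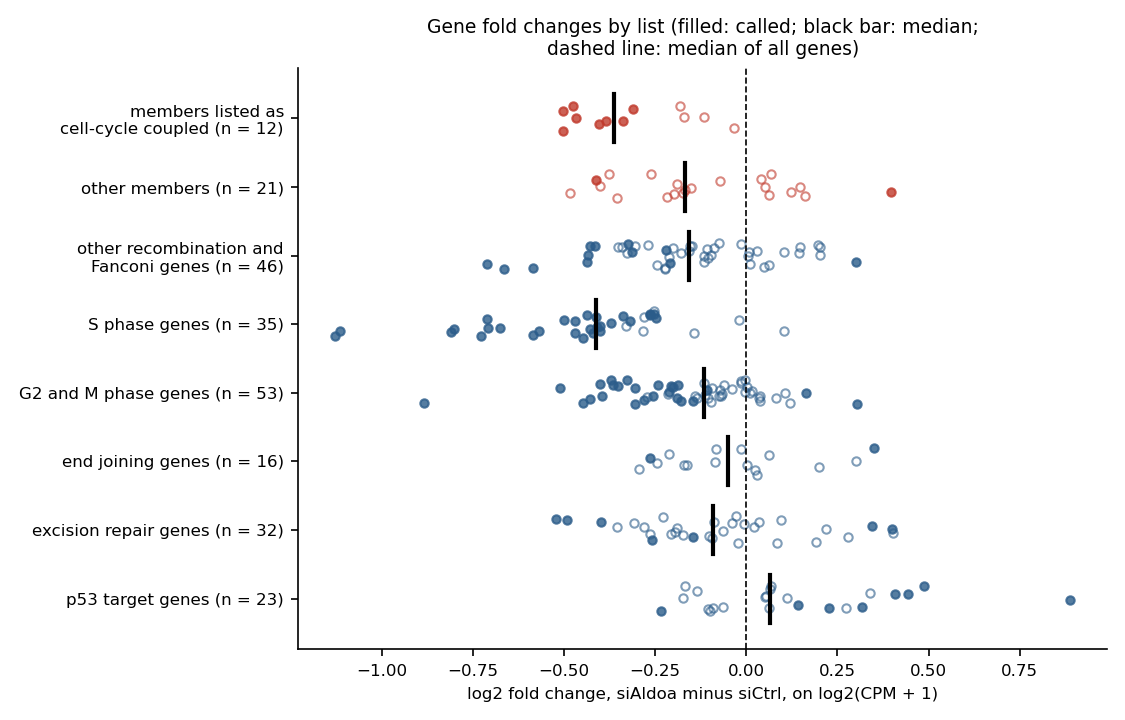
Log2 fold changes (siAldoa minus siCtrl, on log2(CPM + 1)) of single genes by list, with red for members and blue for other lists. Filled points were called, black bars are medians, and the dashed line is the median of all genes (-0.0023). The bars of the coupled members (-0.36) and the S phase genes (-0.41) lie farthest to the left.

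Other genes of homologous recombination and the Fanconi pathway, which were not members, followed. Of 46, 11 were called lower (23.9%, against 10.0% of all genes) and 1 higher (2.17%, against 10.4%), with a median of -0.16. The lowest were Psmc3ip (-0.71), an accessory gene of recombination, Rmi2 (-0.66), a subunit of the BLM dissolvasome, Faap24 (-0.59), a partner of FANCM, Rpa3 (-0.44), a subunit of the single-strand binding complex, and Mcm8 (-0.44), a helicase subunit. Rmi2 was measured at 18.3, 24.1 and 21.7 CPM in siCtrl and 11.6, 12.6 and 15.2 CPM in siAldoa. Helq, a helicase gene, was called higher, from 32.9 ± 2.32 to 40.7 ± 2.36 CPM (SD, n = 3, limma adjusted p = 0.025). Helq lost its call without siCtrl replicate 1 or 2 or siAldoa replicate 2 or 3, and with DESeq2. Without siCtrl replicate 3 or siAldoa replicate 2 the list had 7 lower calls, and without replicate 3 of both groups 1.

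Lists of other repair pathways had medians nearer to that of all genes. Of 16 end joining genes, Parp1 was called lower (-0.26, limma adjusted p = 0.00027). Lig4, the ligase of end joining, was called higher (0.35, limma adjusted p = 0.028). Each was 6.25% of the list, against 10.0% lower and 10.4% higher over all genes, and the median was -0.05. Lig4 lost its call without siCtrl replicate 2 or 3 or siAldoa replicate 2 or 3, and with DESeq2. Of 32 base and nucleotide excision repair genes, 5 were called lower (15.6%, against 10.0% of all genes) and 2 higher (6.25%, against 10.4%), with a median of -0.09. The lower calls were 2 to 4 when 1 library was left out, and both higher calls were lost without siCtrl replicate 2 or 3 or siAldoa replicate 1 or 2, and with quantile normalization or DESeq2. Apex1 (-0.52), Ogg1 (-0.49) and Neil3 (-0.40), all of base excision, were lowest. Of 23 p53 target genes, Plk2 (-0.23) was called lower (4.35%, against 10.0% of all genes) and 7 higher (30.4%, against 10.4%). The median was 0.06, and Sesn1 (0.89) and Eda2r (0.49) were highest. The higher calls were 4 without siCtrl replicate 2 or 3 or siAldoa replicate 1 or 3, 5 without either other library, and 4 with DESeq2.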

How the data were processed

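The authors isolated poly(A) RNA, prepared directional libraries, aligned reads to mm10 with Bowtie2 (version 2.2.7 per the submitters' processing notes), an aligner that does not split reads over introns, drew the same number from each library, and deposited counts per gene as CPM values. The annotation release, the use of strand and the handling of multiply mapping reads are not given in the sources used here. The authors' comparison table (fold changes and p-values) was not used.

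Reads were recovered from the CPM steps (100% of values whole within 0.01), and their depth covers counting error only. Tests used limma (version 3.58.1, in R, version 4.3.3) on log2(CPM + 1), two-sided, with a mean-variance trend, Benjamini-Hochberg adjusted over 18001 genes, checked on simulated data. The labels number the replicates, and the study calls them biological. Replicates 1 and 2 differed by little more than counting error (chi-square per degree of freedom 1.12 in siCtrl and 1.11 in siAldoa). The p-values may therefore understate the spread between independent cultures, which was not tested. edgeR (version 4.0.16) and DESeq2 (version 1.42.0) on recovered reads were alternatives, as were another pseudocount, filter and scalings, no trend, the replicate block and libraries left out. edgeR called 1866 genes lower and 1920 higher.

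Members and gene lists were chosen with earlier results of these data known, so no set test was run. Library values are given for called members and 11 genes named by rule, and other lists by their 3 to 5 lowest and 2 to 3 highest called genes without overlap. GENCODE vM21 (GRCm38) gave coordinates and RefSeq gave promoters.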

Additional observations from a re-analysis of the deposited data

How the results depend on the processing

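Msh6 was called under all 17 alternatives, Blm under 15, Rad51ap1, Fancl and Chek1 under 13, Exo1 under 10, Chek2 under 9, Fancd2 under 8, Bard1 under 7 and Brip1 under 6. These counts include TMM scaling of recovered reads, which repeats the main result and could not change a call. Without the mean-variance trend limma called 3 members lower (12 at an unadjusted p under 0.05) and 0 higher (1 unadjusted), 3 coupled members lower, 0 other members lower (4 unadjusted), 18 S phase genes lower, and 7 G2 and M phase genes lower and 0 higher (0 unadjusted). DESeq2 called 5 members lower and 0 higher (1 unadjusted), 4 coupled members lower and 0 G2 and M phase genes higher (2 unadjusted). The 5 members were Rad51ap1, Blm, Exo1, Fancl and Msh6. The low-value filter and edgeR each called 2 other members lower, Rad51c being added. With the median of fibroblast markers, quantile normalization gave -0.0059 where the deposited scaling gave 0.027. Over all genes the calls were 1809 lower and 1867 higher, 616 and 824 without the trend, and 1117 and 1066 with DESeq2, which adjusts over 11717 genes.

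With libraries or replicate numbers left out, 1 to 8 members were called lower and 0 to 1 higher, with a median of -0.23 to -0.15. Coupled members gave 1 to 6 lower and a median of -0.40 to -0.29, other members 0 to 2 lower, 0 to 1 higher and -0.17 to -0.041, S phase genes 16 to 28 lower and -0.46 to -0.38, and G2 and M phase genes 6 to 20 lower, 0 to 1 higher and -0.14 to -0.11. Over all 17 alternatives, signs turned in genes that were not called: Brca1 (-0.16 to 0.070), Xrcc3 (-0.52 to 0.16), Mre11a (-0.014 to 0.12), Nbn (-0.013 to 0.13), Fancc (-0.37 to 0.0094), Fancf (-0.050 to 0.20), Fancg (-0.48 to 0.0056) and Atr (-0.0077 to 0.084). The cause was not tested, but fewer libraries leave fewer residual degrees of freedom.

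Same-numbered deviations correlated by 0.030, 0.014 and 0.13 across 10059 genes, so the replicate numbers do not pair all libraries. Between the groups, deviations of replicates 1 and 2 correlated by 0.014 to 0.074. Those of replicate 3 correlated with replicates 1 and 2 of the other group by -0.094 to -0.046. Whether replicate 3 shares a batch across the groups was not tested. The replicate block called 8 members lower, Brip1 being lost (adjusted p = 0.067), 1 higher, 1 G2 and M phase gene and 4 p53 target genes higher, with the calls of Lig4 and 1 excision repair gene lost, and 1559 genes lower and 1611 higher over all. Depth limits the members under 20 CPM, whose intervals are wide.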
